A study of Mus musculus with 12 samples.

Results

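The motile cilium axoneme genes were taken as the gene symbols of the deposited count tables that start with Cfap, Dnah, Dnai, Drc or Rsph and a digit, plus Foxj1, Hydin, Ccdc39 and Ccdc40. Symbols of pseudogenes marked -ps were dropped. The rule used names only and no measured value. It found 71 of 55809 symbols, and 69 of them had at least 10 counts in at least 1 of the 12 libraries and are described here. The other 2, the opposite-strand transcript Dnah2os and Cfap97d1, stayed under 10 counts in each library.

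The libraries were bulk RNA sequencing of sorted mouse cells, in 4 groups of 3. TOM positive and TOM negative cells came from the hypothalamus of untreated Mc4r-Cre; Ai14 mice aged 4 weeks. In these mice, Cre made where the Mc4r gene is used switches on the red reporter tdTomato (TOM) of the Ai14 allele, and a cell that made Cre earlier in life stays red. The other groups came from the PVH, the paraventricular nucleus of the hypothalamus, in mice aged 26 weeks, 12 weeks after a virus of the adeno-associated kind (AAV) had been injected. All of these mice were Otp fl/fl; Ai14, so the AAV-GFP controls carried the floxed Otp alleles and the reporter too. AAV-Cre deletes floxed Otp and turns cells red, and TOM positive cells were sorted from it, whereas GFP positive cells were sorted from mice given AAV-GFP. The sorted colour and the virus therefore cannot be told apart, and the sources used here give neither the promoter nor the serotype of the virus. Whether replicate libraries are separate animals is not in the labels, and p-values therefore measure only library-to-library spread, which may be technical. The study looked for regulators of Mc4r and, in PVH neurons given AAV-Cre, for changes behind weight gain.

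A motile cilium is built on an axoneme, a ring of doublet microtubules around a central pair. Dynein arms fixed to the doublets slide them past each other, and radial spokes, the central apparatus and the nexin-dynein regulatory complex control that sliding. FOXJ1 and RFX transcription factors switch on the genes for these parts. In the brain, ependymal cells lining the ventricles carry tufts of motile cilia that move cerebrospinal fluid, whereas most neurons and glia have a single primary cilium without dynein arms or a central pair.

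RFX factors bind the X-box, whose core contains GTTGCC. Promoter sequences from RefSeq (build GRCm38.p6, 250 bases before to 50 after the annotated start) were found for 51 of the 69 genes by symbol. GTTGCC, read on both strands, was present in 18 of the 51 promoters (35.3%) and in 14.1% of all 27025 promoters of that length. A forkhead core, TGTTTAC on both strands, was present in 5.88% of the 51 and 4.05% of all. Of the 22 promoters of genes called lower after AAV-Cre (below), 6 (27.3%) held GTTGCC, and of the 29 not called 12 (41.4%) did. GTTGCC was thus no more frequent among the genes called. The 2 sets are split by the threshold and not by direction, since 63 of the 66 genes tested had a log2 fold change below 0. These shares describe letters in a window and not binding. The 4 stretches printed here show how GTTGCC sits in 3 genes that fell and in Cfap161, which had the most copies. They run 5′ to 3′ on the strand of the gene and lie before its annotated start, and capitals mark GTTGCC or its reverse complement GGCAAC. They lie at chr16:44394610-44394749 (plus strand), chr19:47937572-47937711 (plus strand), chr8:95434884-95435023 (minus strand) and chr7:83794840-83794979 (minus strand) of GRCm38.p6, in the order given.
Cfap44: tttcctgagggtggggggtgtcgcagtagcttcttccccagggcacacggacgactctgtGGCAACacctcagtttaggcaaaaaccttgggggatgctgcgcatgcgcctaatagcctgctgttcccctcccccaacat
Cfap58: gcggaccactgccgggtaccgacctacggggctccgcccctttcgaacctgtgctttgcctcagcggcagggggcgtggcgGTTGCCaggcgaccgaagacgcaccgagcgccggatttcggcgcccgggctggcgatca
Cfap20: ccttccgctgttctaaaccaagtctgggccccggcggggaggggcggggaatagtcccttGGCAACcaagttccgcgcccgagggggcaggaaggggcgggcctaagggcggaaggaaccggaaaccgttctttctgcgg
Cfap161: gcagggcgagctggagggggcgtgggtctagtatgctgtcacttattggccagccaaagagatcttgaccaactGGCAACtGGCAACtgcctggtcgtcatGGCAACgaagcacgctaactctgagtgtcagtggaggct
The motif began 129 bases before the start of Cfap44, 59 before Cfap58 and 94 before Cfap20. Cfap161 held 3 copies, the most distant beginning 66 bases before the start.

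Library totals ran from 17727134 to 27827853 counts in the TOM libraries and from 13506018 to 19245171 in the AAV libraries. Otp, the gene deleted by AAV-Cre, had 12, 9 and 10 counts in the AAV-Cre libraries and 91, 102 and 38 in the AAV-GFP libraries, without overlap but short of the threshold (edgeR adjusted p = 0.135). The study calls the sorted cells neurons, and markers of other cells were counted in them too. Summed over 12 neuron markers, the level was 471 to 510 CPM among TOM positive and 2223 to 2675 in AAV-Cre libraries. Over 10 oligodendrocyte markers it was 77870 to 88820 and 48240 to 61900 CPM in the same groups. CPM are counts scaled to a common library total, here with TMM factors set within each comparison, so levels of TOM and AAV libraries are placed side by side without a test. No molecular identifiers are described, so counts include PCR copies, and the intervals and lower bounds below cover counting error only.

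The axoneme genes were a minor share of the RNA in 9 of the 12 libraries and stood out in the AAV-GFP libraries. Their summed counts were 0.374%, 0.214% and 0.137% of the total in AAV-GFP replicates 1, 2 and 3. In the other 9 libraries they were between 0.0289% and 0.0521%, so the groups did not overlap. On the CPM scale the sum was 3725, 2252 and 1553 in AAV-GFP, 491, 411 and 430 in AAV-Cre, 393, 458 and 395 among TOM positive and 346, 322 and 381 in TOM negative libraries. For 51 of the 69 genes every AAV-GFP library was above each of the other 9 libraries. The share of all genes with that order was not computed, so the 51 have no background. Detection of the axoneme genes was uneven as well. Of the 69 genes, 66 had at least 10 counts in all 3 AAV-GFP libraries, against 20 in AAV-Cre, 19 among TOM positive and 24 in TOM negative libraries. AAV-Cre libraries held 35, 31 and 30 of the genes at 0 counts, and AAV-GFP libraries 2, 0 and 0. Over all symbols, 20778, 21515 and 23902 had a count in AAV-GFP replicates 1, 2 and 3. The numbers were 14747, 16337 and 16988 in AAV-Cre and 16011 to 19023 in TOM libraries. More genes at large were therefore counted in AAV-GFP libraries too. Outside AAV-GFP, low genes came up in single libraries: 11 genes in TOM positive, 15 in TOM negative and 6 in AAV-Cre had at least 10 counts in 1 library and 0 in the other 2, and no gene did so in AAV-GFP. In bulk RNA, fewer ciliated cells and less RNA per ciliated cell cannot be told apart.

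**Figure D1:**
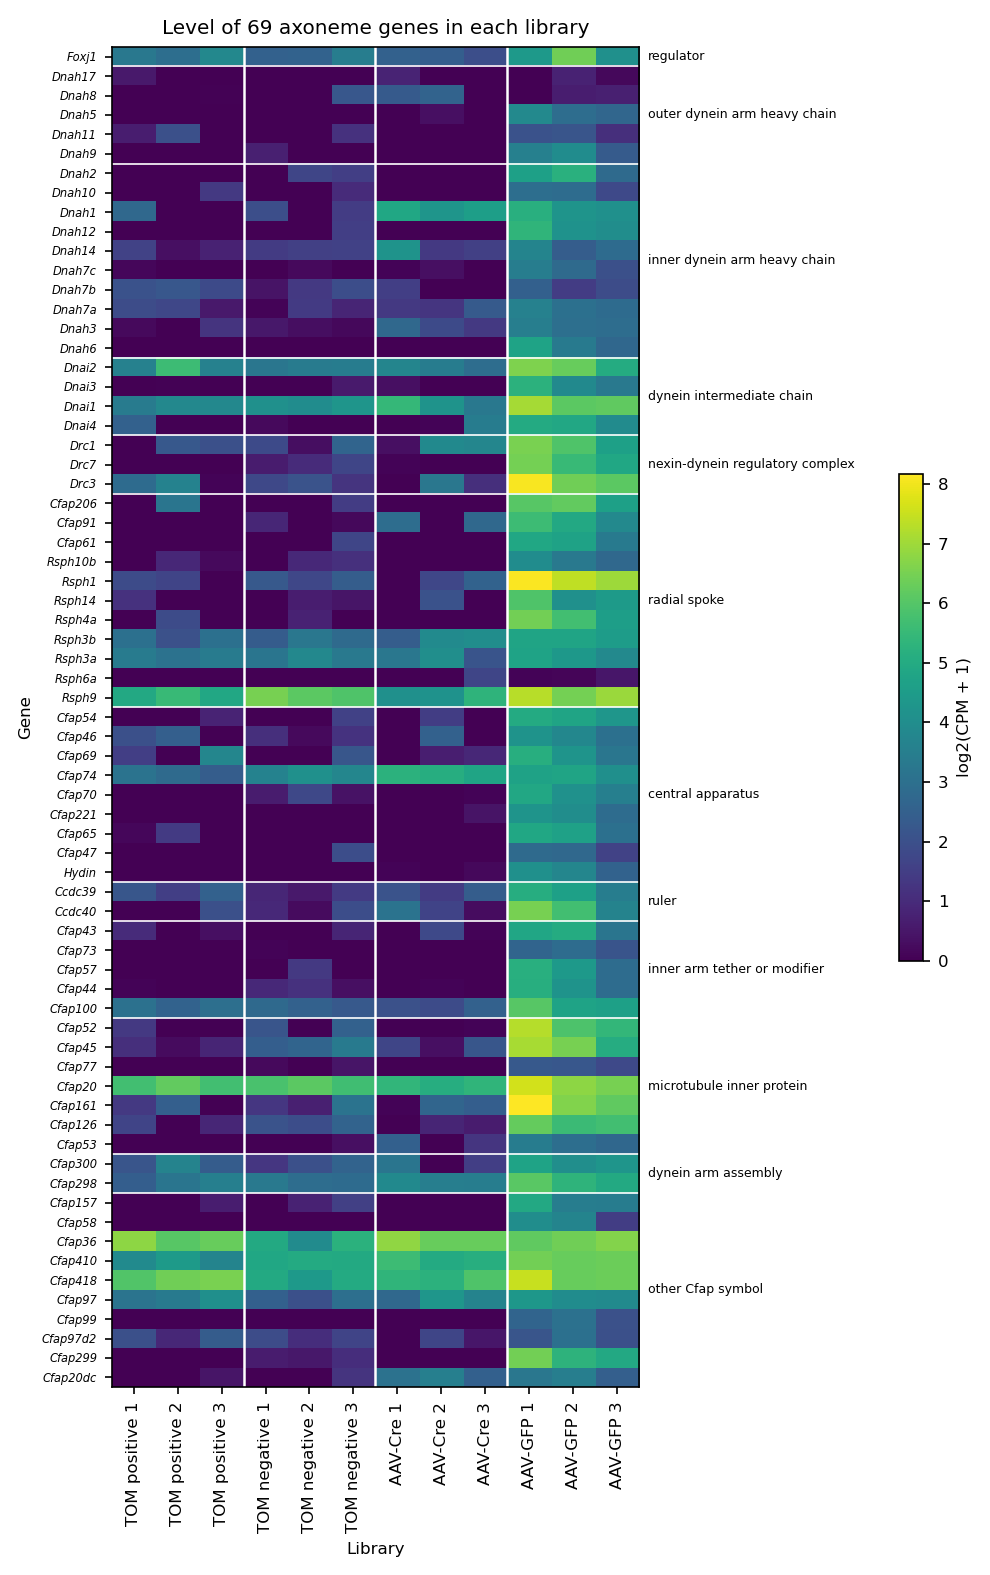
Level of the 69 axoneme genes (rows, grouped by role) in the 12 libraries (columns), as log2(CPM + 1), with CPM scaled within each comparison. The 3 AAV-GFP columns are bright in nearly all rows, with summed levels of 1553 to 3725 CPM, and most rows are dark in the other 9 libraries; Cfap36, Cfap418, Cfap20 and Rsph9 are visible in all 12.

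After AAV-Cre, 31 axoneme genes were lower than after AAV-GFP and none was higher. They included spoke head, dynein, central apparatus and microtubule inner protein genes, and 18 of the 31 had no count in any AAV-Cre library. Over all 69 genes, 58 had every AAV-Cre library below every AAV-GFP library, 0 had the opposite and 11 overlapped. The 66 genes that could be tested compare with a background of 1.97% of 15408 genes lower, 0.63% higher and 2.6% changed in either direction (edgeR quasi-likelihood test, adjusted p under 0.05). Non-overlap was found for 18.6% of all genes tested in the lower and 9.85% in the higher direction. None of the 66 was higher at an unadjusted p under 0.05 either, and DESeq2 also called 0 of the 69 higher (background 3.08%). The count filter bears on these numbers: 46 of the 66 reached its level in all 3 libraries of AAV-GFP but not of AAV-Cre. Their entry to the test rested largely on high AAV-GFP counts, which favours genes lower in AAV-Cre. Of the 20 that reached the filter level of 0.674 CPM in all 6 libraries, 4 fell (Cfap100, Cfap20, Dnai2 and Rsph9), and 13 of the 20 did not overlap. The median log2 fold change was -5.39 over the 66, or -5.35 with genes at 0 set to their bound, and -0.16 over all genes tested. With 1 library left out the median of the axoneme genes ran from -6.27 (without AAV-Cre replicate 2) to -4.60 (without AAV-GFP replicate 1).

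The number of calls rests on the AAV-GFP libraries. Without AAV-GFP replicate 1, 2 or 3, 0 axoneme genes passed in each case, and over all genes 0, 2 and 0 passed (edgeR). Between 44 and 48 axoneme genes were then still lower at an unadjusted p under 0.05. The share of all genes lower at that level is not given here, so these counts have no background. Without AAV-Cre replicate 1, 2 or 3, 24, 11 and 19 passed. No axoneme gene passed in all 6 fits with a library left out, while 61 to 65 of the genes fitted stayed below 0. In the main fit, 95.5% of the axoneme genes tested and 57.2% of all genes tested were below 0. DESeq2 called 46 of the 69 lower (background 6.87%), and edgeR without the count filter called 44 (background 2.03%).

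Foxj1, the transcription factor that sets the motile cilium program (chromosome 11, 116221530 to 116226225, minus strand, in the GENCODE vM30 annotation of the files), did not pass. It had 78, 66 and 42 counts in the AAV-Cre libraries and 388, 1162 and 233 in the AAV-GFP libraries. The groups did not overlap, and AAV-GFP replicate 2 lay well above its partners. The log2 fold change was -3.30 ± 0.74 (SE, n = 3 per group; edgeR adjusted p = 0.0556). Without AAV-GFP replicate 2 it was -2.17 (edgeR adjusted p = 0.147). Without the count filter the edgeR adjusted p was 0.0134, and with DESeq2 it was 0.000365. Unlike many structural genes, Foxj1 was counted in each of the 12 libraries, at 8.77, 6.78 and 13.0 CPM in the TOM positive group and 4.78, 4.89 and 10.2 CPM in the TOM negative group.

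Radial spokes link the doublets to the central pair, and 6 of their 10 genes tested fell. For this and the counts by role below, the background was 1.97% of all genes tested lower. Genes at 0 in each AAV-Cre library entered these counts through AAV-GFP alone. Rsph1, a spoke head gene (chromosome 17, 31473993 to 31496357, minus strand), had 0, 35 and 73 counts under AAV-Cre and 5452, 2335 and 1803 under AAV-GFP. Every AAV-GFP library was far above the AAV-Cre ones, and the log2 fold change was -6.29 ± 1.23 (edgeR adjusted p = 0.0486). Rsph4a, another head subunit (chromosome 10, 33781107 to 33792017, plus strand), had 1670, 701 and 326 counts after AAV-GFP and 0 in each AAV-Cre library. Against a floor of 3 counts over the group it was at least 861-fold lower (edgeR adjusted p = 0.0202). Cfap206, at the base of a spoke, had 1257, 1011 and 346 counts against 0 in each AAV-Cre library and was at least 834-fold lower (edgeR adjusted p = 0.0202). Neither of these genes was detected under AAV-Cre. Cfap61 and Rsph10b also had no count after AAV-Cre, which makes them lower by at least 328-fold and 156-fold. Rsph9, also a head subunit, was still counted. It had 262, 249 and 566 counts under AAV-Cre and 3010, 1216 and 1743 under AAV-GFP. Its log2 fold change was -2.35 ± 0.44 (edgeR adjusted p = 0.0433). Head subunits therefore differed in how much remained, from 0 counts of Rsph4a to a mean of 24.04 ± 12.9 CPM (SD, n = 3) of Rsph9. Rsph14, Cfap91 and Rsph3b were lower without overlap and did not pass. Rsph3a overlapped, and Rsph3a and Rsph3b are near-identical copies whose reads the counting may split.

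Dynein heavy chains are the motors of the arms, and 5 of 13 tested fell. All 5 were at 0 in each AAV-Cre library. The heavy chains that reached the filter level in all 6 libraries were Dnah1, Dnah3, Dnah7a and Dnah14, and none of them fell. Dnah9, an outer arm motor, had 207, 203 and 59 counts after AAV-GFP and none after AAV-Cre (at least 150-fold lower; edgeR adjusted p = 0.036). Dnah5, its partner in the outer arm, had 0, 4 and 0 counts against 257, 91 and 78 and did not pass (edgeR adjusted p = 0.0655). Dnah11, with 0 counts in each AAV-Cre library against 62, 48 and 16, was at least 40.2-fold lower and also missed the threshold (edgeR adjusted p = 0.0536). All 3 outer arm motors of airway and ependymal cilia were thus at 0 to 4 counts in each AAV-Cre library, whether or not they passed. Among inner arm motors Dnah12 had 765, 234 and 216 counts against 0 in each AAV-Cre library (at least 388-fold lower; edgeR adjusted p = 0.0233). Dnah2, Dnah6 and Dnah10 were likewise at 0 after AAV-Cre, at least 332-fold, 228-fold and 81.4-fold lower. Dnah1 behaved differently. It had 459, 269 and 338 counts under AAV-Cre and 667, 247 and 229 under AAV-GFP, the groups overlapped, and the log2 fold change was 0.03 ± 0.44. Dnah3 was lower without overlap and did not pass. Dnah14 overlapped, mostly through 282 counts in AAV-Cre replicate 1 against 23 and 28 in the others. Dnah7a, Dnah7b and Dnah7c are near-identical copies, none passed, and their counts are uncertain.

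Intermediate chains anchor the motors. Dnai2, of the outer arm, had 195, 146 and 96 counts under AAV-Cre and 1860, 1053 and 449 under AAV-GFP, with no overlap. It fell by 2.83 ± 0.49 on the log2 scale (edgeR adjusted p = 0.0356). Dnai1, the other outer arm intermediate chain, had 678, 254 and 128 counts against 2617, 954 and 1028 and did not pass (edgeR adjusted p = 0.121). Dnai3, of an inner arm, nearly vanished, with 4, 0 and 0 counts against 720, 190 and 127, and fell by 7.73 ± 1.41 (edgeR adjusted p = 0.0399). Dnai4, the other inner arm chain, was lower without overlap and did not pass (edgeR adjusted p = 0.42). Outer arm intermediate chains were therefore still counted in the AAV-Cre libraries, while Dnah5, Dnah9 and Dnah11 were at 0 to 4 counts.

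The nexin-dynein regulatory complex ties neighbouring doublets together. Drc7 (chromosome 8, 95781731 to 95804769, plus strand) had 1, 0 and 0 counts under AAV-Cre and 1718, 620 and 407 under AAV-GFP. The ratio of summed counts was 2628 (exact 95% interval 471 to 103800; edgeR adjusted p = 0.0179). Drc3 had 0, 126 and 17 counts against 5268, 1160 and 965 and Drc1 had 4, 201 and 181 against 1771, 835 and 344. Neither passed, and in both the AAV-Cre libraries differed widely among themselves.

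The central apparatus is the pair of single microtubules with its projections, and 4 of its 9 genes fell. Hydin, which builds one of the projections (chromosome 8, 110993609 to 111336885, plus strand), had 1, 0 and 2 counts under AAV-Cre and 316, 172 and 70 under AAV-GFP. The ratio of summed counts was 178 (exact 95% interval 60.6 to 866; edgeR adjusted p = 0.0339). Cfap70 had 0, 0 and 1 counts against 558, 227 and 149, which is a summed ratio of 894 (160 to 35360; edgeR adjusted p = 0.0202). Cfap65 and Cfap47 had no count after AAV-Cre, which makes them lower by at least 317-fold and 72.8-fold. Cfap74 was the exception among the 9. It had 601, 486 and 384 counts under AAV-Cre and 494, 369 and 226 under AAV-GFP, overlapped, with a change of 0.51 ± 0.36 on the log2 scale. Cfap221, with 0, 0 and 5 counts against 344, 211 and 92, missed the threshold (edgeR adjusted p = 0.0556). Cfap46, Cfap54 and Cfap69 were lower without overlap and did not pass either.

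Ccdc39 and Ccdc40 form the ruler that sets the spacing of arms and spokes along a doublet. Ccdc39 had 52, 25 and 63 counts under AAV-Cre and 640, 332 and 142 under AAV-GFP, which is -2.85 ± 0.67 on the log2 scale (edgeR adjusted p = 0.0608). Ccdc40 had 123, 31 and 3 counts against 1719, 714 and 165, a change of -3.92 ± 1.21 (edgeR adjusted p = 0.134). Neither gene overlapped and neither passed; without the count filter both did (edgeR adjusted p = 0.046 and 0.0353). Of the 5 genes that tether or modify inner arms, 4 fell. Cfap44 had 0, 1 and 0 counts against 661, 240 and 92, which is a summed ratio of 951 (170 to 37590; edgeR adjusted p = 0.0248). Cfap57 and Cfap73 were at 0 after AAV-Cre, at least 334-fold and 76.0-fold lower, and Cfap100, with 49, 39 and 71 counts against 1279, 353 and 343, fell by 3.45 ± 0.59 (edgeR adjusted p = 0.0329). Cfap43 was lower without overlap and did not pass.

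Microtubule inner proteins line the inside of the doublets, and 5 of 7 fell. Cfap52 (chromosome 11, 67815632 to 67856477, minus strand) had 0, 0 and 1 counts under AAV-Cre and 2952, 810 and 600 under AAV-GFP. The ratio of summed counts was 4177 (749 to 165000; edgeR adjusted p = 0.0179). Cfap45, its partner in the doublet lumen, had 36, 4 and 52 counts against 2671, 1246 and 460 and fell by 5.42 ± 0.95 (edgeR adjusted p = 0.0357). Cfap126, with 0, 12 and 8 counts against 1438, 643 and 733, fell by 6.97 ± 0.97 (edgeR adjusted p = 0.0248), and Cfap77 was at least 51.4-fold lower. The smallest fall that passed was that of Cfap20, an inner junction protein that lies in other cilia as well. It had 660, 495 and 582 counts against 3759, 1522 and 1282 and fell by 1.78 ± 0.35 (edgeR adjusted p = 0.0497). Cfap161 missed the threshold (log2 fold change -5.53 ± 1.22, edgeR adjusted p = 0.0546), with 1, 80 and 65 counts against 5602, 1363 and 1022, and neither did Cfap53 pass.

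Both genes for dynein arm assembly with a Cfap symbol, Cfap298 and Cfap300, were lower without overlap and did not pass. Among the 10 other Cfap genes 4 fell, and these were all at 0 after AAV-Cre: Cfap299, Cfap157, Cfap58 and Cfap99, at least 828-fold, 271-fold, 154-fold and 78.5-fold lower. Cfap36, which takes part in ARL3-dependent transport into cilia, had 1821, 1124 and 1124 counts against 1394, 1169 and 1436 and a change of 0.05 ± 0.29. Cfap418, a gene of photoreceptor and other primary cilia, had a mean of 45.7 ± 12.3 CPM (SD, n = 3) under AAV-Cre and 112 ± 58.2 CPM under AAV-GFP, without overlap (-1.30 ± 0.41; edgeR adjusted p = 0.147). Cfap410, also known from primary cilia, and Cfap97d2 were lower without overlap and did not pass (edgeR adjusted p = 0.0702 for Cfap410). Cfap97 and Cfap20dc overlapped. The plot of change by role shows these genes near 0 and the genes with no AAV-Cre count far to the left.

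**Figure D2:**
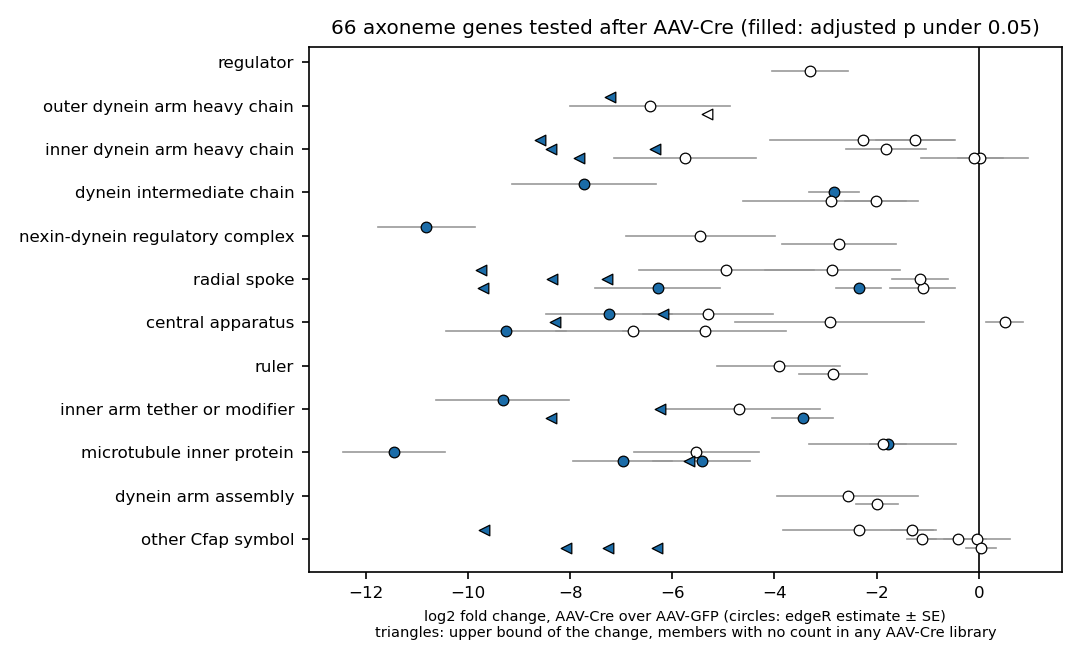
log2 fold change of AAV-Cre over AAV-GFP for the 66 tested axoneme genes, 1 point per gene, by role (circles: edgeR estimate with SE bars; triangles: bound for genes at 0 in all 3 AAV-Cre libraries; filled: adjusted p under 0.05). The estimate of genes with 1 to 3 counts after AAV-Cre depends on the prior count. No filled point lies right of 0, and all but 3 of the points lie left of it. Over all genes tested, 57.2% were below 0.

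The 3 genes that could not be tested were Dnah8, Dnah17 and Rsph6a, known for the sperm flagellum. Dnah8 had 64, 75 and 0 counts under AAV-Cre and 0, 8 and 9 under AAV-GFP. Dnah17 had 12, 0 and 0 against 0, 10 and 2, and Rsph6a 0, 0 and 33 against 1, 1 and 6. Their counts were low and scattered, and the highest library of each was an AAV-Cre one.

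Within AAV-GFP the order of the libraries was alike for most genes. Replicate 1 was the highest of the 3 for 53 of the 69 genes on the CPM scale and replicate 3 the lowest for 56. Foxj1, Cfap206, Cfap43, Cfap73, Cfap97d2, Cfap99, Dnah11, Dnah2, Dnah9 and Rsph3b were the 10 genes whose highest library of all 12 was AAV-GFP replicate 2. The largest single contribution to the sum was Rsph1, without which the difference in share between AAV-Cre and AAV-GFP was -0.177 in place of -0.195 percentage points.

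Ependymal markers outside the 69 genes were lower after AAV-Cre as well. They are outside by symbol only: Dynlrb2, Tppp3, Meig1 and Tekt4 are also on the list of other motile cilium genes below. Of 14 ependymal markers outside the 69 genes, 10 fell after AAV-Cre and 0 rose (edgeR, with 12 lower and 0 higher at an unadjusted p under 0.05, 11 and 0 by DESeq2). Over all genes tested, 1.97% were lower by edgeR and 6.87% by DESeq2. Their summed level was 210 to 272 CPM in AAV-Cre and 2536 to 3449 CPM in AAV-GFP libraries. Mia was the 1 marker at 0 in all AAV-Cre libraries. Mia, Tm4sf1, Tekt4 and Hdc were lower without overlap and did not pass (edgeR adjusted p = 0.0639, 0.0727, 0.2775 and 0.337). Tmem212 had 0, 6 and 6 counts against 8404, 1872 and 3404 and fell by 9.93 ± 0.96 on the log2 scale (edgeR adjusted p = 0.0202). Rarres2, which encodes the secreted protein chemerin, had 153, 200 and 256 counts against 11443, 4176 and 5100 and fell by 4.94 ± 0.42 (edgeR adjusted p = 0.0179). The predicted gene 1700012B09Rik fell by 6.05 ± 0.49 (edgeR adjusted p = 0.0179). The part of ependymal RNA in the axoneme result was not tested.

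The lists for other cell types were examined in the same way, with no test between lists. The background over all genes tested was 1.97% lower and 0.63% higher by edgeR, and 6.87% and 3.08% by DESeq2. Among tanycyte markers 0 of 11 passed in either direction (2 lower and 1 higher at an unadjusted p under 0.05, and the same by DESeq2), with sums of 37.4 to 66.7 CPM in AAV-Cre and 46.0 to 117 in AAV-GFP. Scn7a and Rax were at 0 in AAV-Cre (edgeR adjusted p = 0.051 and 0.0583), and Vcan differed by 2.27 ± 0.76 on the log2 scale (edgeR adjusted p = 0.16). Of 6 choroid plexus markers tested 1 fell, Folr1, at least 218-fold lower, with list sums of 16.0 to 35.3 against 69.8 to 77.7 CPM (2 lower and 0 higher at an unadjusted p under 0.05, 1 and 0 by DESeq2). Folr1, Kcne2 and Aqp1 were at 0 in AAV-Cre and Aqp1 in AAV-GFP too. Clic6 and Sostdc1 were next by p and did not pass (edgeR adjusted p = 0.181 and 0.485). Of 9 endothelial markers tested 1 fell, Emcn (at least 137-fold lower), with sums of 33.0 to 42.0 against 285 to 484 CPM, and Ly6c1 and Flt1 did not pass. At an unadjusted p under 0.05, 5 of these 9 were lower and 0 higher, as by DESeq2, and the median log2 fold change of the list was -3.80. Cdh5 and Emcn were at 0 in AAV-Cre. The sums of the choroid plexus and endothelial lists were thus lower in every AAV-Cre library, while those of the tanycyte list overlapped. Of 10 oligodendrocyte markers 3 rose, Mag, Ugt8a and Ermn, by 1.85, 1.90 and 2.07 on the log2 scale, with sums of 48240 to 61900 against 14560 to 53610 CPM (7 higher and 0 lower at an unadjusted p under 0.05, 5 and 0 by DESeq2). Of 10 microglial markers 1 rose, Csf1r (1.51 ± 0.27; edgeR adjusted p = 0.0398), with sums of 5289 to 10410 against 2638 to 4626 CPM, while Cx3cr1 and P2ry12 did not pass (3 higher and 0 lower at an unadjusted p under 0.05, 2 and 0 by DESeq2). Microglial sums did not overlap and oligodendrocyte sums did. Of the neuron and astrocyte markers, 0 of 12 and 0 of 10 passed (1 and 0 at an unadjusted p under 0.05, 0 and 0 by DESeq2). Neuron sums were 2223 to 2675 against 1361 to 2920 CPM, and Syt1, Elavl3 and Snap25 had changes of 0.76, 0.39 and 0.50. Astrocyte sums were 9704 to 12490 against 8828 to 21330 CPM, and Aqp4, Aldoc and Slc4a4 had changes of -0.62, -0.74 and -1.17. Both of these sums overlapped between the groups. The part of any of these cells in the axoneme result was not tested.

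**Figure D3:**
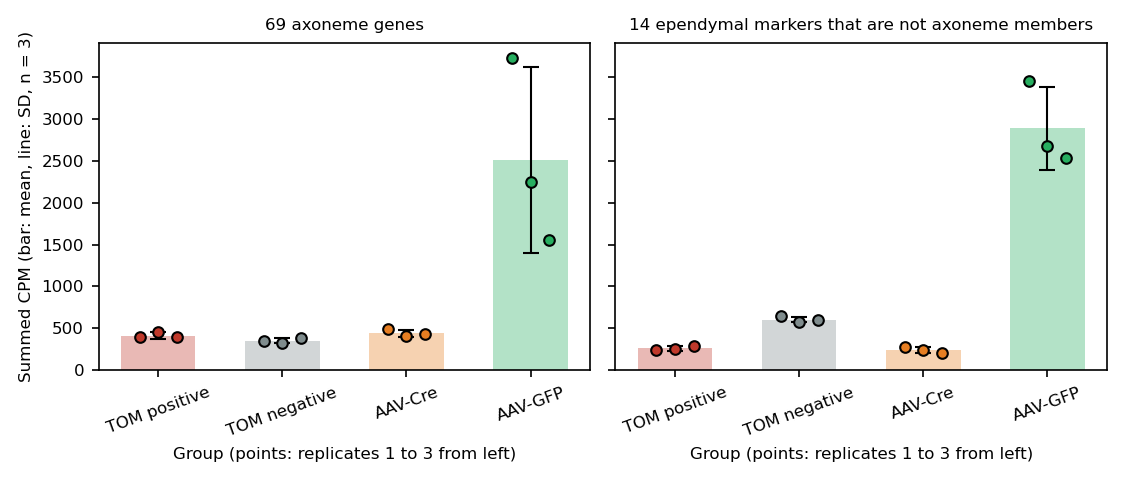
Summed CPM of the 69 axoneme genes (left) and of 14 ependymal markers outside them (right) in each library, with the mean (bar) and SD (line, n = 3) of each group. In both panels the 3 AAV-GFP libraries, at 1553 to 3725 and 2536 to 3449 CPM, lie above the other 9.

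Other genes of the cilium were taken from fixed lists, some of which share genes. Of 57 motile cilium genes without these symbols, 22 fell after AAV-Cre and 0 rose (edgeR, with 47 lower and 0 higher at an unadjusted p under 0.05, 44 and 0 by DESeq2). For this and the next lists the background was 1.97% of all genes tested lower by edgeR and 6.87% by DESeq2. None is given at an unadjusted p. Of the 57, 12 were at 0 in each AAV-Cre library and so passed the count filter through AAV-GFP alone. Stoml3, Ak7 and Spef1, all at 0 in each AAV-Cre library, were at least 1520-fold, 797-fold and 527-fold lower. Of 16 dynein arm assembly factors 3 fell, Zmynd10, Dnaaf1 and Pih1d2. Zmynd10 had 0, 4 and 0 counts against 1548, 544 and 411, and Dnaaf1 was at least 505-fold lower. Pih1d2 fell by 6.23 ± 1.17 on the log2 scale (edgeR adjusted p = 0.0433). Dnaaf9 had the opposite sign, at 3814, 3351 and 3662 counts against 1220, 1617 and 1032, without overlap, and did not pass (1.5 ± 0.31; edgeR adjusted p = 0.051). In this list 9 were lower and 1 higher at an unadjusted p under 0.05, and 8 and 1 by DESeq2. Intraflagellar transport and BBSome genes, which serve primary cilia too, changed less: 3 of 38 fell, namely Arl6, Dync2li1 and Ift27, by 1.71, 1.53 and 1.55 (14 lower and 0 higher at an unadjusted p under 0.05, 7 and 0 by DESeq2). Of 12 regulators of ciliogenesis other than Foxj1, 0 passed (edgeR; 2 lower and 0 higher at an unadjusted p under 0.05, 0 and 0 by DESeq2). Rfx2 had 0, 132 and 44 counts against 998, 814 and 237 (edgeR adjusted p = 0.229), and Ulk4 and Stk36 had changes of -3.35 and -1.64. Expressed without a test between lists, the median log2 fold change was -4.31 over the motile cilium list, -1.64 over both the assembly factors and the regulators, and -0.77 over the transport list.

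Between TOM positive and TOM negative cells 5 axoneme genes passed, in both directions. Cfap418 and Cfap36 were higher in TOM positive cells, and Rsph9, Cfap45 and Drc7 were lower. Only 35 of the 69 genes had enough counts to be tested, and 5 passed (14.3%), against a background of 23.9% of 15228 genes in either direction, 10.4% higher and 13.4% lower. As a group they were therefore not called more often than genes at large. Of the 35, 5 (14.3%) were higher and 7 (20%) lower without overlap, where 20.8% and 25.6% of all genes tested were. Over all 69, these counts were 5 and 10, and 54 overlapped. The median log2 fold change was 0.01 over the 35 and -0.02 over all genes tested. DESeq2 gave 50 axoneme genes an adjusted p and called 2 higher (4%) and 9 lower (18%), with a background of 14% and 16.9%. Without the count filter, edgeR called 2 of 62 higher (3.23%) and 1 lower (1.61%), with a background of 5.45% and 7.31%. Without scaling factors, which moved the median of all genes by 0.26 on the log2 scale, 2 of the 35 were higher and 1 lower.

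Higher in TOM positive cells were 2 of the 35 axoneme genes tested (5.71%), against 10.4% of all genes tested. Both are known from cilia without a motile axoneme. Not all such genes were higher: Cfap410, also known from primary cilia, was lower without overlap and did not pass. Cfap418 (chromosome 4, 10874498 to 10899425, plus strand) was counted 1208, 2444 and 2753 times in the TOM positive group and 602, 425 and 685 times in the TOM negative group. It rose by 1.53 ± 0.26 on the log2 scale (edgeR adjusted p = 0.00715) and passed in all 6 fits with a library left out. Cfap36 (chromosome 11, 29171532 to 29197409, minus strand) had 2157, 1941 and 2298 counts against 599, 301 and 787, also without overlap. It rose by 1.65 ± 0.38 (edgeR adjusted p = 0.0194), and it lost its call without TOM positive replicate 1, TOM negative replicate 1 or TOM negative replicate 2 (adjusted p up to 0.063). Genes of intraflagellar transport and the BBSome rose beside them: 7 of 37 rose and 0 fell, with Bbip1, Ift74 and Kif3a at 1.24, 2.30 and 1.66. Over all genes tested, 10.4% were higher. Their summed level was 936 to 1026 CPM among TOM positive and 623 to 681 in TOM negative libraries. Neuron and oligodendrocyte markers moved in the same direction. Of 12 neuron markers 6 rose, led by Celf4, Elavl3 and Snap25, from 69.2 to 117 CPM to 471 to 510 CPM, and all 10 oligodendrocyte markers rose, Ermn and Mobp among them, from 18900 to 24790 to 77870 to 88820 CPM. Their part in the rise of Cfap418 and Cfap36 was not tested.

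Lower in TOM positive cells were 3 of the 35 axoneme genes tested (8.57%), against 13.4% of all genes tested. These 3 encode parts of the motile axoneme, as do most genes found by the rule, so the calls do not set motile genes apart. Other parts of the motile axoneme went the other way: Ccdc39 and Dnai2 were higher without overlap and did not pass. Rsph9 (chromosome 17, 46432961 to 46455142, minus strand) had 577, 1298 and 862 counts among TOM positive and 1804, 1412 and 1305 in TOM negative libraries and fell by 1.09 ± 0.27 (edgeR adjusted p = 0.0251). Cfap45 (chromosome 1, 172348368 to 172373437, plus strand) had 22, 5 and 24 counts against 89, 107 and 200 and fell by 3.16 ± 0.93 (edgeR adjusted p = 0.0469). Drc7 was at 0 throughout the TOM positive group and had 11, 21 and 50 counts in the TOM negative group, at least 34.6-fold lower (edgeR adjusted p = 0.0166). None of the 3 overlapped, but their calls depend on single libraries: with each of the 6 libraries left out in turn, Cfap45 passed in 0 fits and Rsph9 and Drc7 in 2 each (adjusted p up to 0.143, 0.0779 and 0.0735). Cfap299 and Cfap70 had too few counts to be tested and were, like Drc7, at 0 in each TOM positive library and counted in each TOM negative one. By counting error alone they were lower by at least 18.6-fold and 28.7-fold.

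Of 13 ependymal markers outside the 69 genes, 2 fell in TOM positive cells, Pltp and Rarres2, a share close to the 13.4% of all genes, with Tekt4 next (edgeR adjusted p = 0.118). The list sum was 243 to 292 CPM among TOM positive and 574 to 643 CPM in TOM negative libraries. Much of that difference was Pltp, at 47.9 ± 13.6 against 304 ± 32.1 CPM (SD, n = 3). Tmem212, Hdc, Tm4sf1, Dynlrb2, Meig1, Tekt4 and 1110017D15Rik were also lower without overlap and did not pass. Tppp3, at 180 ± 24.8 against 164 ± 49.0 CPM, Ccdc153, Fam183b and 1700012B09Rik overlapped. The median log2 fold change of the list was -1.81. Over all genes tested, 25.6% were lower without overlap and the median was -0.02. Of 36 other motile cilium genes 2 fell, Dnali1 and Spag6l, both at 0 in TOM positive cells and lower by at least 94.5-fold and 73.0-fold, and Armc3 did not pass. Ependymal sums did not overlap between the groups, while sums over these other motile cilium genes, at 283 to 364 and 267 to 374 CPM, did. Among 12 assembly factors 3 fell and 1 rose. Ccdc103 was at 0 in TOM positive cells, and Pih1d1 fell by 1.76 ± 0.28 while Dnaaf9 rose by 1.72 ± 0.26. Of the regulators 0 of 9 passed (edgeR; 0 at an unadjusted p under 0.05 and 0 by DESeq2), with changes of 0.21, 0.59 and 0.71 for Tapt1, Gmnn and Rfx3. Microglial markers were lower throughout, 10 of 10, Trem2 and C1qa among them, at 418 to 982 against 24830 to 29320 CPM. Of 10 endothelial markers 4 fell, led by Cdh5, Ly6c1 and Pecam1, at 1.43 to 77.0 against 410 to 566 CPM. Of 10 astrocyte markers 2 fell, Agt and Aldh1l1, and S100b had a change of 0.61 that did not pass, at 9960 to 13520 against 19400 to 20400 CPM. Of 7 tanycyte markers 1 fell, Nes, while Vcan, with a change of 3.89, did not pass, at 36.1 to 56.7 against 47.0 to 65.7 CPM. Of 5 choroid plexus markers, led by Otx2, Clic6 and Ttr, 0 passed (edgeR; 0 at an unadjusted p under 0.05, 1 higher by DESeq2), at 14.4 to 73.6 against 11.8 to 160 CPM. Sums of the microglial, endothelial and astrocyte lists did not overlap between the groups, and those of the tanycyte and choroid plexus lists did. Tanycyte markers at 0 in all TOM positive libraries were Gpr50, Scn7a, Nes, Lhx2 and Fndc3c1, of which Scn7a and Fndc3c1 were at 0 in all TOM negative libraries too. Among choroid plexus markers Kcne2 was at 0 in both groups, Slc4a5 in TOM positive and Prlr in TOM negative libraries. The part of these cells in the axoneme result was not tested.

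Foxj1 itself overlapped between the TOM groups, differing by 0.53 ± 0.56 on the log2 scale (edgeR adjusted p = 0.546). Hydin was not counted in any TOM library, nor were Cfap221, Cfap58, Cfap99, Dnah5, Dnah6 and Rsph6a. Ccdc39 had 69, 55 and 145 counts among TOM positive and 17, 10 and 35 in TOM negative libraries. The groups did not overlap, and the change of 1.79 ± 0.86 did not pass (edgeR adjusted p = 0.184). Ccdc40, its partner in the ruler, had 0, 0 and 89 counts against 18, 4 and 61 and no stable direction (-0.39 ± 2.05; edgeR adjusted p = 0.915). Dnai2 was higher without overlap, at 214, 1399 and 333 counts against 164, 198 and 214, mostly through TOM positive replicate 2. It did not pass (edgeR adjusted p = 0.179). Cfap97 was higher without overlap as well, and Cfap410, Cfap74, Dnai1 and Cfap126 were lower (edgeR adjusted p = 0.182, 0.0775, 0.115, 0.41 and 0.414 in this order), and none of these passed. Cfap44, too low to be tested, had 1, 0 and 0 counts against 18, 26 and 6, a summed ratio of 63.3 (exact 95% interval 10.9 to 2548) by counting error alone.

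**Figure D4:**
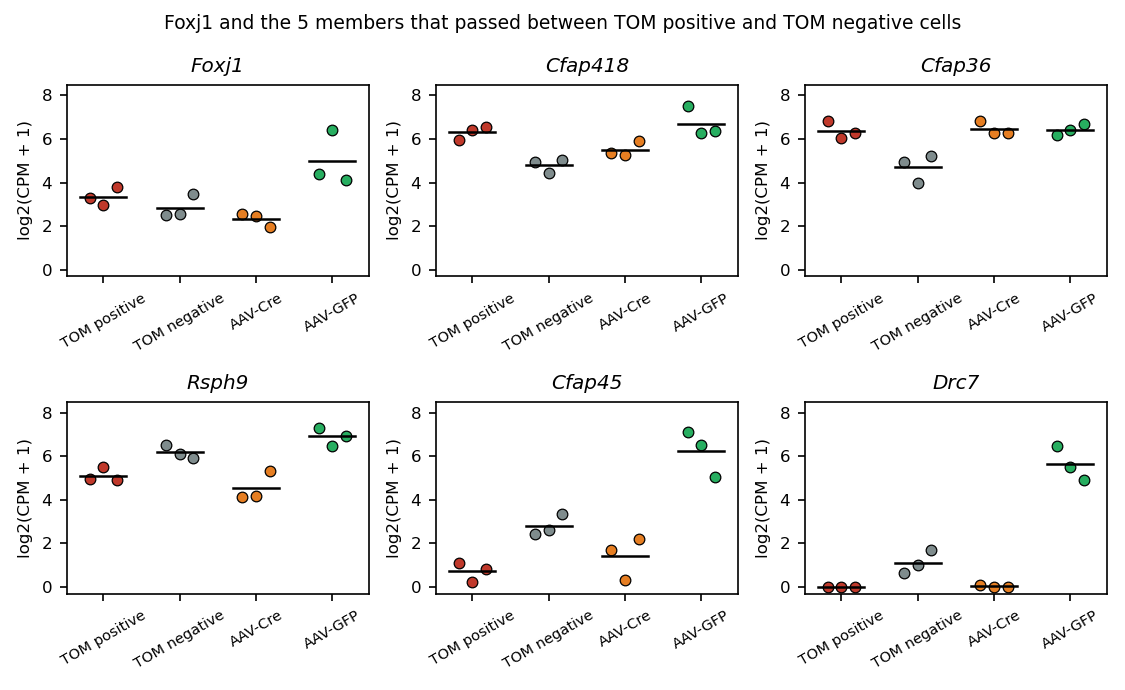
log2(CPM + 1) of Foxj1 and of the 5 axoneme genes that passed between TOM positive and TOM negative cells, in each library of the 4 groups (points) with the group mean (line); CPM are scaled within each comparison. Cfap418 and Cfap36 are higher in TOM positive than in TOM negative libraries, Rsph9, Cfap45 and Drc7 are lower, and Foxj1 overlaps.

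Per kilobase of exonic length, the order of the genes differed between groups. In AAV-GFP libraries Rsph1 led with a mean of 140 ± 58.4 CPM per kilobase (SD, n = 3), above Rsph9 (76.2 ± 21.1) and Cfap161 (48.1 ± 37.2). The libraries of these 2 spoke genes overlapped, since the lowest value of Rsph1 was 92.5 and the highest of Rsph9 97.2. In AAV-Cre libraries the leaders were Cfap36 (32.4 ± 7.74), Cfap418 (19.1 ± 5.16) and Rsph9 (15 ± 8.03), and Rsph1 was at 1.80 ± 1.83. In TOM positive libraries Cfap418 (33.0 ± 6.39), Cfap36 (30.8 ± 8.497) and Rsph9 (21.3 ± 5.45) led. In TOM negative libraries it was Rsph9 (45.6 ± 9.97), Cfap20 (13.1 ± 2.14) and Cfap418 (11.5 ± 2.49). So Rsph9 and Cfap418 were among the highest 3 in TOM positive, TOM negative and AAV-Cre cells, and Rsph1 only in AAV-GFP.

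In the AAV-GFP libraries, roles also differed per kilobase. The median was 29.6 CPM per kilobase over 7 microtubule inner proteins, 21.9 over 3 regulatory complex genes, 8.003 over 11 radial spoke genes and 2.28 over 9 central apparatus genes. For the 15 dynein heavy chains it was 0.541, with a range of 0.0151 to 1.99. These heavy chains, at 12009 to 26820 bases, are among the longest of the genes. Hydin and Cfap54 of the central apparatus, at 18037 and 14645 bases, lie in the same range. Reads per kilobase of very long transcripts depend on how evenly a library covers them, which the counts do not show.

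**Figure D5:**
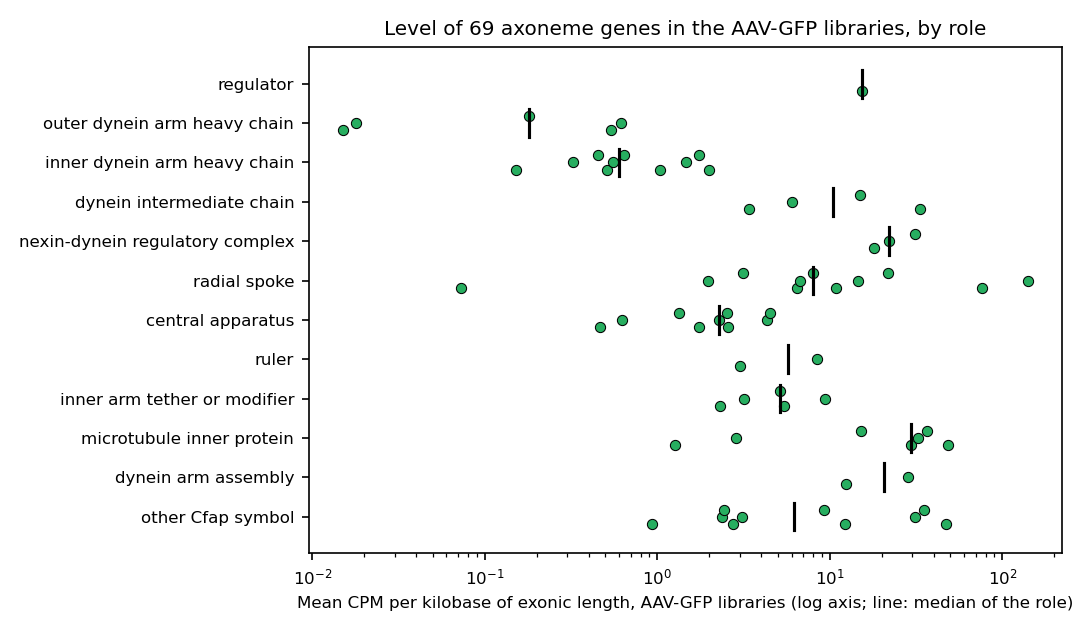
Mean CPM per kilobase of exonic length in the AAV-GFP libraries for each of the 69 axoneme genes (points, log axis) by role, with the median of the role (line). The median of the dynein heavy chains is low, at 0.541 with a range of 0.0151 to 1.99 that some other genes share, and Rsph1, a radial spoke gene, highest, at 140.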

How the data were processed

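Bulk RNA sequencing of 12 libraries was analysed in 2 comparisons of 6 libraries. The deposited values are raw counts, whole numbers for each gene symbol. The authors, per the submitters' processing notes, used FastQC, Trim Galore, STAR, featureCounts and the mm10 build, with no versions given. For the AAV libraries the authors ran featureCounts 2.0.1 in paired mode on GENCODE vM30 gene names with no strand option (per the file headers), and gene coordinates here are of that annotation. The sources used here do not give those settings for the TOM table. Each of the 6 single AAV files held the same values as the joint table.

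Counts were fitted with edgeR 4.0.16 in R 4.3.3 over all genes (TMM, filterByExpr with a minimum count of 10, quasi-likelihood test, two-sided, Benjamini-Hochberg, threshold 0.05). SE was derived from the F statistic. CPM were computed from TMM-scaled totals, and per kilobase from the exonic length in the AAV files. Where a group had 0 counts, the fold is a bound against 3 counts over the group; where it had 1 to 3, the ratio of summed counts has an exact 95% interval. RefSeq promoters are of GRCm38.p6, and no coordinate was converted. Alternatives were RLE factors, no scaling factors, no count filter, DESeq2 1.42.0, a replicate block and each library left out. The steps were tested on simulated data.

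Genes named are Foxj1, Hydin, Ccdc39 and Ccdc40, those that passed, the 5 smallest p per comparison, the 3 highest levels per kilobase of a group, those with at least 10 counts in each library of one group and 0 in the other, and the 3 smallest p of each list, of which some genes are not reported here. Other genes are named as contrasts and were chosen after their values were seen. The genes, the roles and the 12 lists were chosen with earlier results of these data known. Roles are from general knowledge.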

Additional observations from a re-analysis of the deposited data

How the results depend on the processing

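Between TOM positive and TOM negative cells, the number of axoneme genes called was 5 in the main edgeR fit, 3 without scaling factors, 3 without the count filter and 11 with DESeq2, and 1 to 5 with each library left out. Over all genes the count was 3635, with 5468 by DESeq2 and 1511 to 3547 with each library left out. Unscaled totals gave 2204 higher and 1532 lower genes in place of 1589 and 2046, and the median fold change shifted by 0.26 on the log2 scale (0.16 in the AAV comparison). The value of Ccdc40 changed sign from -0.39 to 0.19 without TOM positive replicate 1, 0.19 without replicate 2 and 0.8 without TOM negative replicate 3. Its counts were 0, 0 and 89 in the TOM positive and 18, 4 and 61 in the TOM negative libraries. Without TOM positive replicate 3 that group had no count left, and the value of -7.86 depends on the prior count.

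After AAV-Cre, 31 axoneme genes passed in the main edgeR fit, 30 with RLE factors, 24 without scaling factors, 44 without the count filter, 46 with DESeq2 and 0 to 24 with each library left out. Over all genes the count was 400, with 712 without the count filter, 1883 by DESeq2 and 0 to 296 with each library left out. A fit without a library has fewer samples. The difference in summed share ranged from -0.247 to -0.129 percentage points in the AAV comparison and from 0.011 to 0.0156 in the TOM comparison.

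Replicate numbers were not shown to pair the libraries, since correlations of same-numbered libraries were -0.0308, -0.0142 and 0.0244 in the TOM and -0.0696, -0.07 and -0.0637 in the AAV comparison. With a replicate block, 2 axoneme genes and 1987 genes passed in the TOM comparison. In the AAV comparison 0 axoneme genes and 0 genes passed with the replicate block, while 50 axoneme genes were lower at an unadjusted p under 0.05. The share of all genes lower at that level with the block is not given here. A correlation between genes across libraries, planned as a description, is not given because the AAV-GFP libraries stand apart from the others.

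Low counts limit the tests: 34 of the 69 genes could not be tested between TOM positive and TOM negative cells. A gene at 0 counts in a library was not detected, which does not show that it was absent. TOM positive replicate 2 had a library total of 26693043 counts and 37 of the 69 genes at 0. AAV-GFP replicate 2 had a total of 14545566 counts and 0 of the 69 genes at 0. The cause of the zeros was not tested.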

Other observations

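Within AAV-GFP, Foxj1 was highest in replicate 2, as were 13 of the 69 genes, Foxj1 included, while 53 were highest in replicate 1. Foxj1 was at 20.1, 84.2 and 16.4 CPM in AAV-GFP replicates 1, 2 and 3. Rsph1 was at 282, 169 and 127 CPM, and the summed level of the 69 axoneme genes was 3725, 2252 and 1553 CPM in the same libraries.

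A longer X-box search was added after the promoters had been seen. GTTGCCNNG, on both strands, was present in 12 of the 51 axoneme gene promoters (23.5%) and in 5.74% of all 27025 promoters. It was present in 18.2% of the 22 promoters of genes called lower after AAV-Cre and in 27.6% of the 29 not called.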
